A study of Mus musculus with 4 samples.

Results

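Reduced representation bisulfite sequencing (RRBS) recorded 967 CpG sites at which Chr4-cl KO ES cells carried less methylation than WT ES cells in 2i + Vitamin C medium (hereafter 2i) but not in serum, here called 2i-only loss sites. A site was taken when its methylated share of reads was lower in the KO library by 30 percentage points or more in 2i, and when the serum libraries differed by at most 10 points in either direction. It also had to be covered by at least 10 reads in every library and by at least 20 reads in both 2i libraries, which left 311369 CpG sites to choose from. The members were therefore selected on the measured methylation of all 4 libraries, so their methylation values are given as a description without a test. Of the 311369 sites, 268614 met the serum limit and 44491 of those also held at least 30% methylation in WT cells in 2i. Only these 44491 could have been chosen, and they serve as the comparison sites below. The 2i-only loss sites were 2.17% of the comparison sites and 0.311% of all sites with enough reads.

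The 4 libraries came from WT and Chr4-cl KO mouse ES cells, each kept either in standard ES cell medium with FCS and LIF (serum) or in 2i + Vitamin C for 1 week. Each group has 1 library, so no difference has a replicate check. In the KO cells the cluster of KRAB zinc finger protein (KRAB-ZFP) genes on distal chromosome 4 was removed with a pair of guide RNAs. The KO cells derive from B6;129 mice with a cre/ERT insertion at Gt(ROSA)26Sor. WT and KO clones were picked after nucleofection, and each genotype is represented by the DNA of 1 culture per medium. Genotype therefore cannot be told apart from any other difference between these cultures. Reads summed over all CpG sites ranged from 42672691 in the KO 2i library to 90649194 in the WT 2i library, and the serum libraries had 70134758 (WT) and 88376738 (KO). The library in which the loss was scored was thus the shallowest. The deletion was visible in both KO libraries. Between the guide RNA matches at chr4:144973699-147227571 (mm9), 612 CpG sites reached 10 reads in WT serum and 708 in WT 2i, against 9 and 12 in the KO libraries. No 2i-only loss site could lie in that span, where 0 sites were covered in all libraries. The promoters of the pluripotency genes Pou5f1 (4 sites) and Sox2 (26 sites) held a mean of at most 4.94% methylation in every library. They are among 12 listed pluripotency genes with a covered promoter site, and the levels of the others are not given here. Low methylation at these promoters does not by itself establish ES cell identity.

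KRAB-ZFPs bind DNA, often inside transposable elements (TEs), and recruit the corepressor KAP1 (TRIM28), which brings the histone methyltransferase SETDB1 and leads to H3K9me3 and, in many settings, to DNA methylation. In serum, mouse ES cells keep most CpG sites outside CpG islands highly methylated. 2i medium blocks MEK and GSK3 signaling and lowers methylation across the genome, and Vitamin C adds to this by stimulating the TET enzymes, which oxidize methylated cytosine. Imprinted control regions and some young retrotransposons, such as IAP elements, are known to keep methylation under such conditions, and KRAB-ZFPs with KAP1 take part in this. RRBS cuts DNA with MspI at the sequence CCGG and so reads CpG-rich fragments.

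The sequences of a few of these positions show what the sites look like. Each run below is the plus strand of mm9, written 5′ to 3′, and the capitals mark the CpGs that are 2i-only loss sites. They are the locus with the lowest pooled KO methylation among the 12 largest, the parts of the Gm17683 intron and the Camta1 coding exon with the most members, an intergenic repeat-like locus, a locus beside a copy of a KRAB-ZFP target sequence, the pair of members with the most reads in the KO library, and the site inside the imprinted gene Rtl1.
chr12:100883432-100883653: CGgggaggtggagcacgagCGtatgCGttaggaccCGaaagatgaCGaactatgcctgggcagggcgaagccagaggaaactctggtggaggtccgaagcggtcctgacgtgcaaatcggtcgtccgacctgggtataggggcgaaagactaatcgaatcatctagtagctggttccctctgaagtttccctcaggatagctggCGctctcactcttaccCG
chr9:88961875-88961962: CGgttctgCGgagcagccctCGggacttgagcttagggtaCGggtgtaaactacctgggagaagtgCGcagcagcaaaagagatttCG
chr4:150518988-150519046: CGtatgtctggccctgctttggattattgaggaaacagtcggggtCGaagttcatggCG
chr7:131015223-131015374: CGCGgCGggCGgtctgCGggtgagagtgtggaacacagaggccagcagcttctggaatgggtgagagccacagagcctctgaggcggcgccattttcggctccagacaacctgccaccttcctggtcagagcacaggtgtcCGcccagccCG
chr15:82146508-82146682: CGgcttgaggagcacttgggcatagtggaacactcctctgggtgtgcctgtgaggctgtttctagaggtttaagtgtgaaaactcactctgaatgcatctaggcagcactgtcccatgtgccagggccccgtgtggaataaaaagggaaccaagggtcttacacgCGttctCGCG
chr4:5138246-5138367: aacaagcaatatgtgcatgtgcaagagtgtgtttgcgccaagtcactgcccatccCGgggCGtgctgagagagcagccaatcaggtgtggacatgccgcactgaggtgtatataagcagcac
chr12:110828699-110828820: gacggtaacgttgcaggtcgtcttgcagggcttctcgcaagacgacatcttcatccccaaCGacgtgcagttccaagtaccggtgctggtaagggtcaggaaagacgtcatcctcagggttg
The members sat close together in these runs, with 7 in the chromosome 12 locus and in the chromosome 7 locus, and 6 of 6 CpGs in the Gm17683 run were 2i-only loss sites. The opening run resembles by its letters a part of the large ribosomal RNA gene (28S), which exists in many copies in tandem arrays. This was read from general knowledge of that RNA and not aligned to a reference.

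Among the 967 members, serum methylation was high in both genotypes and the libraries separated in 2i, as the choice of sites demands. In WT serum the methylation level had a median of 92.5% (78.7 to 100% between the 5th and 95th percentile), and in KO serum of 93.3% (80 to 100%). In 2i the median was 66.4% in WT cells (42.2 to 89.3%) and 27.9% in KO cells (5.21 to 54.5%). WT cells thus held intermediate to high methylation where KO cells held little. The comparison sites started from the same serum level, with medians of 92.3% in WT and 93.4% in KO cells, and had medians of 54.7% and 50% in 2i. Between the media, the median change of the members was -24.7 points in WT cells and -63.9 points in KO cells, and that of the comparison sites -36.1 and -42.6 points. At the members the WT library thus kept more of its serum methylation than at the comparison sites, and the KO library less. Choosing sites on the gap between the 2i libraries favors both. In all, 892 members (92.2%) held at least 80% methylation in both serum libraries, beside 94.4% of comparison sites.

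**Figure D1:**
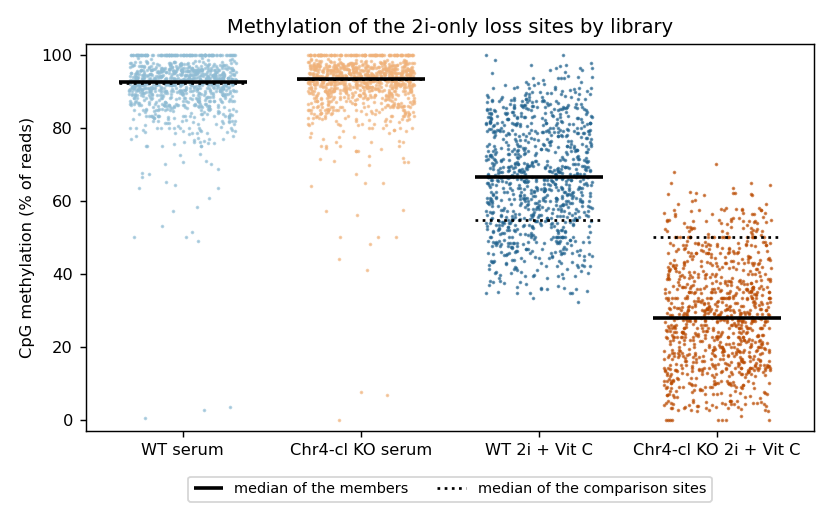
Methylation level (percent of reads methylated, vertical axis) of each of the 967 2i-only loss sites in the 4 libraries, 1 point per site, with horizontal position within a library spread at random. Solid lines are the members' medians (92.5, 93.3, 66.4 and 27.9%) and dotted lines those of the 44491 comparison sites (92.3, 93.4, 54.7 and 50%); the separation in 2i follows from how the sites were chosen.

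The size of the loss was mostly near the limit of 30 points. The median KO minus WT difference was -34.7 points and the largest loss -82.9 points. At least 40 points were lost at 230 members, at least 50 points at 74, at least 60 points at 36 and at least 70 points at 15. At 8 members the KO 2i library had no methylated read, and at 107 it had at most 10% methylation. The 3 members just inside the limit all lost exactly 30 points, for example from 73.3% to 43.3% at position 78338862 of chromosome 11. The 3 sites just outside had differences of -29.97 to -29.99 points, for example from 64.5% to 34.5% at position 35749213 of chromosome 5.

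Most of the members rested on few reads in the KO library. Their median depth in 2i was 53 in the WT and 32 in the KO library, beside 82 and 45 reads at the comparison sites. Of comparison sites with 20 to 29 KO reads, 3.63% were members (402 of 11085), and of those with 100 or more KO reads 1.21% (83 of 6837). The mirror image of the rule, a gain of at least 30 points in KO cells with the same serum limit, found 256 sites, or 0.634% of the 40371 sites that could gain as much. This share was also lower at greater depth, from 1.3% at 20 to 29 reads to 0.231% at 100 or more. At each depth losses were more frequent than gains. Over the comparison sites as a whole the median KO minus WT difference in 2i was -5.63 points. These sites had to hold at least 30% in WT cells in 2i, with no limit on KO cells, which favors lower KO values. Over all 311369 sites with enough reads the median was -0.866 points.

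**Figure D2:**
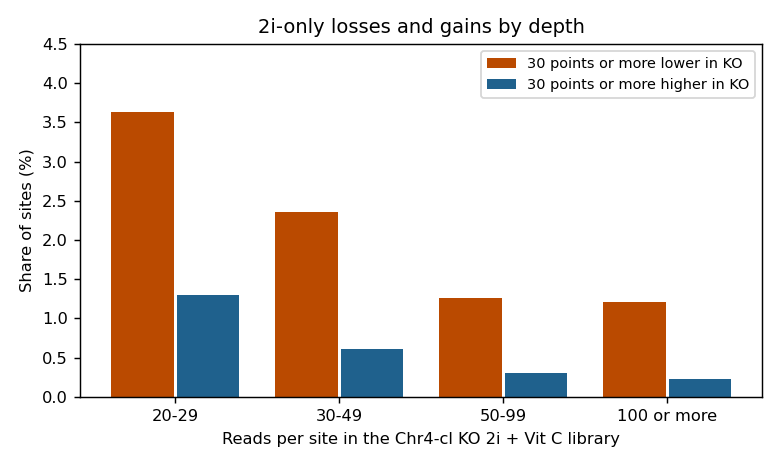
Share of sites (%) called as 2i-only losses (orange, of the 44491 sites that could lose 30 points) or as the mirror-image gains (blue, of the 40371 sites that could gain 30 points) by the number of reads at the site in the Chr4-cl KO 2i library. Losses go from 3.63% at 20 to 29 reads to 1.21% at 100 or more, and gains from 1.3% to 0.231%.

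Fisher's exact test (two-sided) was run on the methylated and unmethylated reads of WT and KO cells in 2i at all 458443 sites with at least 10 reads in both, with Benjamini-Hochberg adjustment over all of them. It compares these 2 libraries and not the conditions, and since RRBS reads carry no molecular identifiers it covers counting error only. A site was called lost at an adjusted p under 0.05 with a loss of at least 20 points, which held for 0.361% of all tested sites. Of the members, 417 (43.1%) were called. This share carries no weight of its own because the members were chosen on the same reads, but it shows that for the other 550 the loss was not separable from counting error at this depth under that adjustment. A loss of 30 points or more, without a test, was seen at 1.1% of the tested sites.

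A further measured difference between the 2 libraries was the number of reads itself. At the comparison sites the KO library in 2i had a median of 0.59 times the reads of the WT library. At the members this ratio was 0.694, and at the 36 members that lost at least 60 points it was 0.987. The KO library had at least 2 times as many reads as WT at 6.2% of the members (60 sites) and 1.82% of the comparison sites. In serum, the median ratio was 1.18 at the members and 1.13 at the comparison sites. The members with the largest losses thus had relatively more KO reads in 2i than the comparison sites, and the part of this in the loss was not tested.

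The members were spread over the genome. Merging members up to 1000 bp apart gave 791 loci, of which 677 held a single member, 80 held 2 and 34 held 3 or more. They lay on chromosomes 1 to 19, X and Y. Among the 20 chromosomes with 500 or more comparison sites, the share of comparison sites that were members ran from 1.24% on chromosome 6 (27 of 2174) to 3.57% on the X chromosome (46 of 1288), beside 2.13% on the autosomes together. The X chromosome's comparison sites as a whole had a smaller median difference, -3.2 points, than the autosomes, -5.69 points. Chromosome 4, which carries the deletion, held 75 members or 2.16% of its comparison sites. The member nearest to the deleted span lay 606664 bp from it, and 16 of the 529 comparison sites within 5 Mb of the span were members.

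Positions relative to genes were taken from the GENCODE vM1 annotation of mm9. Of the members, 534 (55.2%) were intergenic, 232 (24%) intronic, 119 (12.3%) in coding exons and 17 (1.76%) in other exons, and 65 (6.72%) lay within 1 kb of the transcription start site (TSS) of a protein-coding or lincRNA gene. The comparison sites were 48.6% intergenic, 29.1% intronic, 13.6% in coding exons, 2.48% in other exons and 6.16% near a TSS. The members' intervals lay above the comparison share for intergenic sites (52.1 to 58.3%) and below it for introns (21.4 to 26.8%), and near start sites the comparison share lay inside the members' interval (95% Wilson interval 5.31 to 8.48%). These intervals treat sites as independent, although sites of 1 locus share reads. Over all 311369 sites with enough reads, 59% lay near a TSS, since RRBS reads mostly CpG islands that are unmethylated and could not lose 30 points. In UTRs, 38 members (3.93%) were found, beside 4.19% of comparison sites. A TSS was more than 50 kb away for 34% of members and 35.2% of comparison sites.

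**Figure D3:**
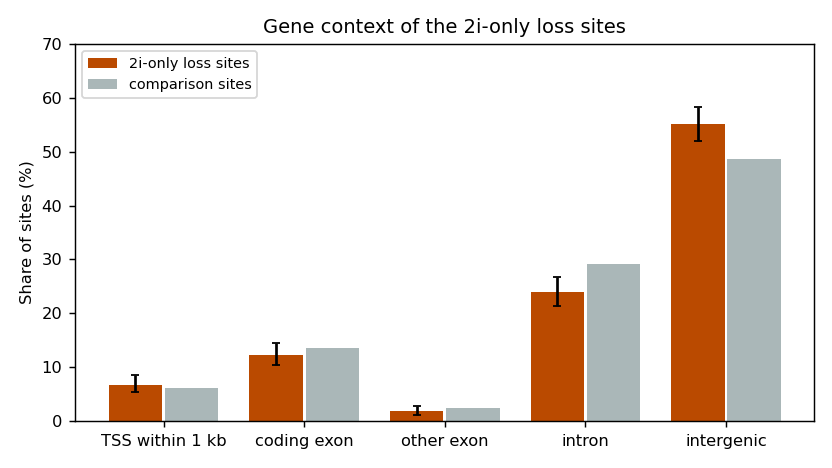
Share (%) of the 967 2i-only loss sites (orange, with 95% Wilson intervals that cover counting error only) and of the 44491 comparison sites (grey) within 1 kb of a TSS, in coding exons, in other exons, in introns and between genes. The members are 55.2% intergenic and 24% intronic, the comparison sites 48.6% and 29.1%.

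Base composition differed little between members and comparison sites. The 250 bases on each side of a site had a median GC content of 52.7% and 12 CpGs in both sets. A CpG island-like window (GC above 50% and an observed to expected CpG ratio above 0.6) surrounded 70 members (7.24%) and 4.46% of comparison sites, but these members fell into 40 of the 791 loci (5.06%). The CpG of an MspI site (CCGG) made up 25.6% of the members and 33.3% of the comparison sites. Members were more often in repeated sequence. The 24-base words within 100 bases of the site occurred a median of 2 or more times in mm9 at 373 members (38.6%) and at 30% of comparison sites. The share of comparison sites that were members was 1.91% in unique windows, 2.82% at 2 to 9 copies, 3.41% at 10 to 99 copies and 2.07% at 100 or more. At repeated positions, reads of other copies can be placed on the listed one or discarded.

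The rule did not use sites that failed its depth limits, and these gave a look at the surroundings of the members that is independent of their choice apart from shared reads and fragments. There were 147074 such sites with at least 10 reads in both 2i libraries, and 0.142% of them were called lost. Of the 528 that lay more than 100 and up to 1000 bp from a member, 9 (1.7%, Wilson interval 0.899 to 3.21%) were called lost and 1 was called gained. Within 100 bp, where reads can be shared with a member, 8 of 255 (3.14%) were called lost. From 1000 to 5000 bp it was 10 of 646 (1.55%), from 5000 to 20000 bp 2 of 2465 (0.0811%) and beyond 20 kb 180 of 143177 (0.126%).

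Sites near members had more methylation in WT cells in 2i, with a mean of 44% for the 528 sites and 17.4% beyond 20 kb. Unused sites with at least 30% methylation in WT cells in 2i were then taken alone. Of these, 8 of 193 (4.15%) within 100 bp and 9 of 334 (2.69%) at more than 100 and up to 1000 bp were called lost. From 1000 to 5000 bp it was 10 of 230 (4.35%), and from 5000 to 20000 bp 2 of 681 (0.294%). Beyond 20 kb it was 174 of 34974 (0.498%). The share thus showed no fall with distance up to 5000 bp. Mean levels of the 334 sites were 62.9% (WT) and 53.3% (KO), and those of the 34974 sites 55.5% and 48.7%. KO cells were lower at 231 of the 334 (69.2%) and at 64.5% of the distant sites. Taking sites by their WT level favors lower KO values at both. The median difference was -8.39 points for the 334 sites, -12.7 points within 100 bp and -6.67 points beyond 20 kb. Between these it ran from -9.13 points at 1000 to 5000 bp to -7.73 points at 5000 to 20000 bp, so that past 100 bp the medians lay close to each other. A loss of at least 30 points without a test was seen at 7.58% of the 528 sites, where 2.37% of all unused sites had one. Many of the latter held too little methylation in WT cells to lose as much. With at least 30% in WT cells in 2i, the shares were 12% of the 334 sites and 9.48% of the 34974 sites beyond 20 kb. The 528 sites were shallow, with a median of 15 KO reads.

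**Figure D4:**
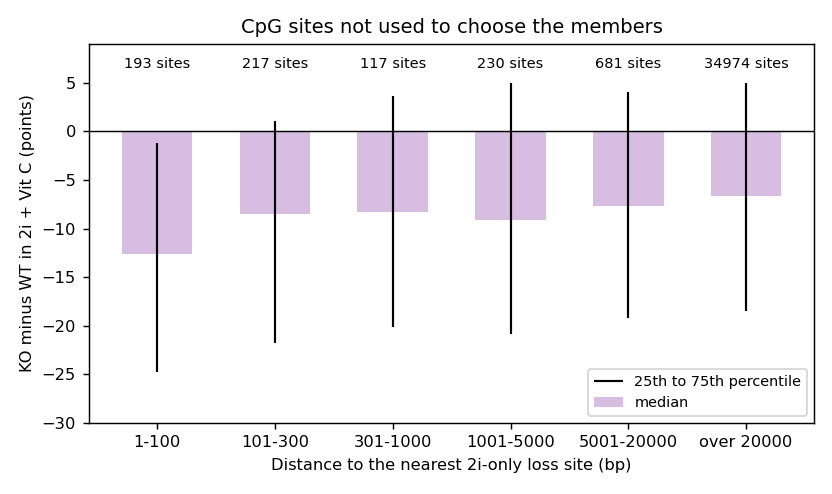
KO minus WT methylation in 2i (percentage points, vertical axis) at CpG sites that the rule did not use and that had at least 30% methylation in WT cells, by distance to the nearest 2i-only loss site (bp). Bars are medians and black lines the 25th to 75th percentile over sites; the median goes from -12.7 points within 100 bp to -6.67 points beyond 20 kb.

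Sites that were covered deeply enough for the rule but were not chosen followed a like course, although their values took part in the choice. The 960 comparison sites that lay within 100 bp of a member without being one had a median difference of -12.3 points, and the 718 farther away but within 1000 bp of -6.85 points. Over all comparison sites that were not members the median was -5.35 points. As comparison sites met the serum limit, each of these would have been a member with a loss of 30 points or more.

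The locus with the most members lay in an intron of Gm17683, at chr9:88961417-88961961, where 8 of 12 covered CpGs were members. Its pooled reads were 94.9% methylated in WT serum (292 reads), 93.5% in KO serum (504 reads), 65.1% in WT 2i (415 reads) and 26.7% in KO 2i (748 reads). The nearest TSS, 25712 bp away, was that of Trim43b, a gene of the TRIM family. The intergenic locus at chr7:131015223-131015373, 111010 bp from Hs3st4, which encodes a heparan sulfate sulfotransferase, held 7 members. It went from 92.3% and 93% in serum to 68.6% in WT (668 reads) and 26.9% in KO cells (969 reads) in 2i. At both loci the KO library had more reads than WT, although it was the shallower one.

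The ribosomal-like locus at chr12:100883432-100883652 also held 7 members among 8 covered CpGs. Methylation there was 95.2% in WT serum (1926 reads), 92% in KO serum (653 reads), 45.1% in WT 2i (665 reads) and 6.09% in KO 2i (427 reads), the lowest KO level among the 12 loci with the most members. The 24-base words of this window occurred a median of 1 time in mm9. Whether reads of the tandem ribosomal arrays were placed here was not tested.

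Camta1, which encodes a calmodulin-binding transcription activator, carried 6 members in a coding exon at chr4:150518988-150519460. Its pooled methylation was 94.5% in WT and 94.9% in KO serum, and 58.6% in WT (249 reads) and 23.3% in KO cells (279 reads) in 2i. With 2 further members at other positions, up to 150525977, Camta1 had 8 in all, as many as Gm17683 and Gm20388. The Camta1 locus was the largest one in sequence that occurs only 1 time in mm9 apart from the ribosomal-like one, and it lies outside the deleted span.

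Of the next 8 loci, 3 were RLTR4-like (an endogenous retroviral group related to murine leukemia virus) and lay in elements placed from the capture probes of the study. They were chr4:15165874-15166107 (5 members), chr10:8264814-8264844 (5 members) and chr12:19249631-19249790 (4 members). Pooled methylation at the first was 94.8% in WT serum, 92.7% in KO serum, 53.1% in WT 2i (382 reads) and 11.7% in KO 2i (120 reads). At the second it was 94.2%, 89.2%, 50.7% (359 reads) and 13.3% (1384 reads) in the same order. The third had the largest pooled loss of the 12 loci, with 93.2% and 94.3% in serum, 85.7% in WT (161 reads) and 10.6% in KO cells (104 reads) in 2i. Intervals of the pooled WT and KO shares in 2i did not overlap at any of the 12 loci, which the choice of members makes near certain.

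The remaining 5 loci held 4 members each. In an intron of 6030498E09Rik on the X chromosome, at chrX:36302861-36302953, methylation was 95% and 92.9% in serum, 80.6% in WT (129 reads) and 13.9% in KO cells (489 reads) in 2i. The locus near Fbxw22 on chromosome 9 had 77.9% in WT and 28.3% in KO cells in 2i, and near D10Wsu102e on chromosome 10 67.6% and 25.8%. Near Wbp2nl on chromosome 15 it was 63.1% and 21.9%, and near Slxl1 on the X chromosome 85.3% and 46.1%, the highest KO level of the 12. Slxl1 belongs to a family of spermatid genes of the sex chromosomes.

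**Figure D5:**
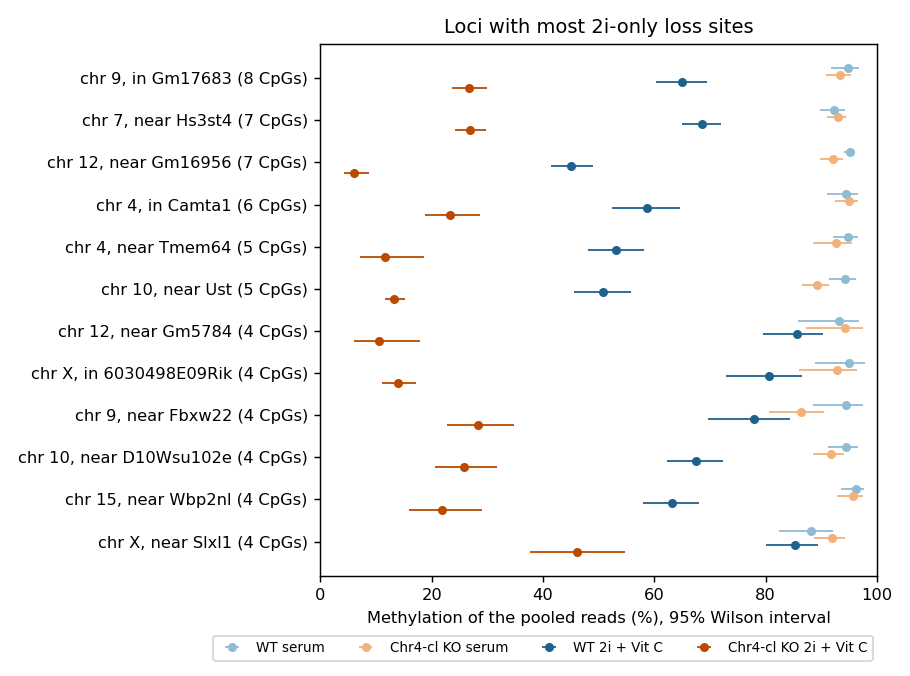
Methylation (%, horizontal axis) of the pooled reads of the members in each of the 12 loci with the most 2i-only loss sites, in the 4 libraries, with 95% Wilson intervals that cover counting error only; a row names the chromosome, the gene the locus lies in or is nearest to, and its number of members. In serum all points lie at 86.3% or above, while in 2i WT lies between 45.1 and 85.7% and KO between 6.09 and 46.1%.

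The 6 members with the largest losses among the 167 with at least 50 reads in both 2i libraries, outside those loci and 1 per locus, comprised 5 intergenic sites and 1 in an intron. The largest was position 173415802 of chromosome 1, 17807 bp from Refbp2, an RNA export factor. Its methylation was 91.5% in WT serum, 95.1% in KO serum, 89.6% in WT 2i (96 reads, Wilson interval 81.9 to 94.2%) and 6.71% in KO 2i (745 reads, 5.13 to 8.74%). In WT cells this site had lost almost none of its serum methylation. The window around it was alike to the RLTR4 loci of chromosomes 4 and 8.

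Position 5138306 of chromosome 4, shown above with its neighbour at 5138301, had 97.5% and 96.1% methylation in serum, 84.6% in WT (246 reads) and 18.4% in KO cells (1166 reads) in 2i. Its neighbour went from 83.7% in WT to 30.2% in KO cells in that medium. At position 44060697 of the X chromosome the level was 95.7% and 97.7% in serum, 95.8% in WT and 27.1% in KO cells in 2i. Here the WT library showed no fall between the media. Such retention was not confined to these sites, as 159 members had a WT level in 2i at most 10 points under that in serum.

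Position 11626139 of chromosome 7 lay 35045 bp from Zscan4c, a gene of the 2-cell stage embryo, and went from 75.7% in WT (70 reads) to 7.41% in KO cells (54 reads) in 2i, with 93.3% and 98.6% in serum. Position 26721882 of the same chromosome, 20097 bp from Cyp2b10, a drug-metabolizing cytochrome P450, went from 74.5% (51 reads) to 8.2% (61 reads), with 88.2% and 95% in serum. Position 125952657 of chromosome 8, in an intron of Gm20388, went from 87.3% (173 reads) to 24.1% (83 reads), with 93.6% and 98.6% in serum. In all 6 cases the Wilson intervals of WT and KO cells in 2i were apart, as the choice of the largest losses implies.

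Within 1 kb of a TSS, the members touched 61 genes, of which 9 at 6 places had 2 or more members. The start of Cmtm2b, a chemokine-like factor gene, held 3 of them between 129 and 136 bp downstream of its TSS, a stretch that also lies within 1 kb of the TSS of Gm11020. Their pooled methylation was 92.9% in WT serum (239 reads), 98.1% in KO serum (159 reads), 72.3% in WT 2i (264 reads) and 29.9% in KO 2i (87 reads). Over all 7 covered sites within 1 kb, the mean was 47.6% in WT and 29.1% in KO cells in 2i. As the members were chosen for their loss, a smaller difference over all covered sites is favored by that choice.

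Ankrd61, an ankyrin repeat gene, had 2 members 71 and 137 bp downstream of its TSS. They lie in an annotated UTR, inside both Ankrd61 and Eif2ak1. They had 49.1% in WT and 17.3% in KO cells in 2i and 88.5% and 92.8% in serum. Cfd, which encodes complement factor D (adipsin), had 2 members 620 and 643 bp downstream, with 49.6% and 19% in 2i and 91.8% and 89.6% in serum. Pla2g4b, a cytosolic phospholipase A2, had 2 members with 62.9% and 33.7% in 2i and 94.4% and 93.6% in serum. Upstream of the starts of Hemt1 (by 40 and 67 bp) and Gml, 2 members had 65.4% and 32.8% on 52 and 64 reads. At each of these starts the members were highly methylated in serum in both genotypes.

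The start shared by R3hdm1 and Zranb3, an annealing helicase gene, was the exception. Its 2 members, at positions 129999918 and 129999925 of chromosome 1 and 17 and 24 bp downstream of the R3hdm1 TSS, had pooled methylation of 1.52% in WT serum (395 reads), 3.33% in KO serum (60 reads), 45.8% in WT 2i (48 reads) and 0.495% in KO 2i (202 reads). Here the KO library did not lose methylation between the media, and the WT library in 2i was the one apart, on 11 methylated of 24 reads at each site. Position 119010784 of chromosome 5, 56 bp from the TSS of Med13l, a subunit of the Mediator kinase module, had the same pattern with 3.57% and 7.69% in serum and 34.8% in WT (23 reads) and 0% in KO cells (45 reads) in 2i. The remaining member with under 50% in WT serum, position 27225803 of chromosome 13 near the placental lactogen gene Prl3d2, had 49.1% and 41.1% in serum, 40.3% in WT and 0% in KO cells (24 reads) in 2i. These 4 were singled out after their values were seen.

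The lists of genes of known methylation control had few comparison sites near a TSS, and with 2.17% of all comparison sites being members, their counts do not set them apart. Of 47 imprinted genes, 43 were in the annotation, 30 had a covered site within 1 kb of a TSS and 7 had a comparison site there, and none of these promoters held a member. The only imprinted gene with a member in its body was Rtl1, a paternally expressed gene derived from a retrotransposon, where position 110828759 of chromosome 12 in the coding exon had 90.8% and 93.4% in serum, 46.1% in WT (254 reads) and 15% in KO cells (20 reads) in 2i. It was 1 of 10 comparison sites in Rtl1. Of 28 germline genes, which are silenced by promoter methylation in somatic cells, 8 had a comparison site near the TSS and 1 had a member. This was Slc25a31, the testis ADP/ATP carrier, with 57.1% and 48.1% in serum, 36% in WT (25 reads) and 4.88% in KO cells (41 reads) in 2i at position 40513280 of chromosome 3. Over its 32 covered promoter sites the mean was 13.4% in WT and 8.78% in KO cells in that medium.

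The 22 pluripotency genes and the 18 early lineage genes had no comparison site near a TSS and no member in their bodies. Of 22 genes of the DNA methylation and KAP1 pathway 2 had such a site, and none a member. Of 3 genes that lie near TEs examined by the study, none had a comparison site near a TSS and 1 had members in its body. This was Cd59a, which encodes an inhibitor of complement and had 2 intronic members at positions 103944853 and 103944945 of chromosome 2. They had 93.1% and 93.1% in WT serum, 90.9% and 92.5% in KO serum, 53.8% and 48.8% in WT 2i and 9.68% and 9.68% in KO 2i, on 39 and 41 WT and 62 and 62 KO reads. They were the only comparison sites in the gene.

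ETn and RLTR4 were the TE groups that could be placed in mm9, from the sequences of the study's capture probes. In or within 500 bp of such elements lay 30 members (3.1%, Wilson interval 2.18 to 4.39%) and 0.33% of the comparison sites. The interval treats sites as independent, although these members fell into 15 loci (1.9% of loci). The comparison sites have no figure by locus. The RLTR4 elements held 20 members (2.07%, beside 0.121% of comparison sites) in 6 of the 13 elements with a comparison site, and 14 of these were the members of 3 loci described above. The ETn elements held 10 members (1.03%, beside 0.209%) in 9 of 34 elements with a comparison site, with at most 2 members in an element. RLTR4 members had a median of 58.2% in WT and 13.1% in KO cells in 2i, and ETn members of 83.2% and 41.2%. Most of the other comparison sites in these elements were lower in KO cells too, at 33 of 34 in RLTR4 elements and 68 of 83 in ETn elements, with median differences of -12 and -7.17 points. Over all comparison sites that were not members, 30407 of 43524 were lower in KO cells, with a median of -5.35 points.

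Copies of the short sequences that the study tested as KRAB-ZFP targets in reporter assays were placed in mm9 by alignment. Within 1 kb of a copy of any of them lay 29 members (3%) and 1.2% of the comparison sites. For targets of KRAB-ZFPs of the deleted cluster the count was 26 members (2.69%) and 0.625% of comparison sites. For targets of other KRAB-ZFPs it was 3 members (0.31%) and 0.573%. Among the deleted cluster's targets, those of Gm13157 (34 comparison sites) and Gm13139 (32 comparison sites) had no member within 1 kb. Counting each locus a single time, 12 of 791 loci (1.52%) lay near a Chr4-cl target copy. The comparison sites are given per site only, so this share has no like figure beside it. The target sequences with a member nearby are printed because they mark which copies these were.
Gm21082 target in IAPLTR1_Mm: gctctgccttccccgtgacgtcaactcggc
Gm30910 target in MMERGLN: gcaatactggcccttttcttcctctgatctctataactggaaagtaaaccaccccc
Rex2 target in MMETn: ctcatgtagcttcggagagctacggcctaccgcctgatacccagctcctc
Gm13051 target in MMETn: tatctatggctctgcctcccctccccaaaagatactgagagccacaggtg
Gm13152 target in RLTR13B1: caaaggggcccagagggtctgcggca
Zfp617 target in ORR1A2, of another cluster: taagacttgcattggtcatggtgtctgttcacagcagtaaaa
The Gm21082 target accounted for 14 members in 5 loci, or 1.45% of members and 0.632% of loci, beside 0.382% of comparison sites. Of these, 6 lay in the Gm17683 intron and 4 in the locus near Wbp2nl. The copy at chr9:88962737-88962766 (plus strand) was identical to the tested sequence and lay 776 bp from the nearest member. The copy at chr15:82146916-82146945 (minus strand) differed from it at 1 base, shown in capitals, and lay 235 bp from the nearest member.
Copy near Wbp2nl: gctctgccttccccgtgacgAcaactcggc
The 3 remaining Gm21082 loci, on chromosomes 16, 18 and 19, went from 77.3, 86.2 and 69% in WT to 38.1, 53.8 and 36.5% in KO cells in 2i.

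Copies of the Gm30910 target had 5 members within 1 kb (0.517%, beside 0.0247%), with methylation of 61.5% in WT and 12.2% in KO cells on chromosome 1, and of 71.7% and 26.5%, and 73.5% and 9.52%, at 2 loci of chromosome 7. Rex2 target copies had 3 members within 1 kb (0.31%, beside 0.0427% or 19 comparison sites). At the copy on chromosome 5, chr5:37172764-37172813 (minus strand), which was identical to the tested sequence, the member was 67 bp away and had 66.2% in WT and 27.5% in KO cells. On chromosome 2, a member lay 25 bp from a copy with 2 differences, and the locus had 85% in WT and 45.9% in KO cells. A Gm13152 target copy on chromosome 1, identical to the tested sequence, had 3 members 837 bp away or more, with 67.7% and 35.1%. These were 1 locus and 0.31% of members, beside 0.0135% or 6 comparison sites. A Gm13051 target copy on chromosome 16 had 1 member (0.103%, beside 0.0135%), with 82.5% and 37.5%. Zfp617 target copies had 3 members (0.31%, beside 0.573%), at 57.7, 85.7 and 61.5% in WT and 24, 54.5 and 20.7% in KO cells in 2i. Binding at these copies was not measured in the RRBS libraries, and several rest on under 50 reads per library.

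Sequence likeness between the loci was described by aligning the 250 bases on each side of the middle of each locus with those of the others. At 80% identity or more over at least 300 bp, 225 of the 791 loci were alike to another locus. No such count is given for the comparison sites, 30% of which also lay in windows of 2 or more copies. Likeness is therefore not shown to be particular to the 2i-only loss loci. The largest set joined 87 loci with 120 members, including the chromosome 7 locus near Hs3st4, at a pooled 73.6% in WT and 36% in KO cells in 2i. A smaller set of 6 loci with 10 members, alike at 91.1 to 95.5% identity and including the chromosome 10 locus near D10Wsu102e, had 63.6% in WT and 21.3% in KO cells. Loci whose windows were alike to RLTR4 made up 2 sets. The set of 3 loci with 8 members had 66.6% in WT and 12.3% in KO cells, and the set of 2 loci with 5 members had 78% and 19%. Loci alike to ETn were found in 3 sets. In the set of 17 loci with 17 members, 15 loci were alike to ETn, and the pooled methylation went from 71.3% in WT to 31.4% in KO cells. The 24-base words of this set's loci occurred a median of 187.5 times in mm9, and 22320 times at position 10826974 of chromosome 3. Whether these windows are ETn sequence or a commoner repeat that several ETn elements also hold was not tested. A set of 4 loci with 5 members, which included the loci at the 2 Rex2 target copies, had 72.2% and 34.4%, and another of 4 loci with 4 members had 84.1% and 48.7%. The remaining sets are left unnamed, since no annotation of other TEs was used here.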

How the data were processed

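MspI-digested, bisulfite-converted DNA was sequenced for both genotypes in serum and in 2i + Vitamin C, 1 library each. The authors used Trim Galore for trimming and Bismark for mapping to mm9 (versions not given in the sources used here) and deposited, per CpG dyad, read counts, methylated read counts and the methylated fraction, which equals their ratio. Positions listed more than once in a file (332 rows in WT serum, 830 in KO 2i + Vitamin C, where a second table is appended) were left out. The members, lists and tests were chosen with earlier results of these data known.

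Sites were selected from the deposited counts as the report states, checked to be CpGs in NCBIM37 (mm9), annotated with GENCODE vM1 and merged into loci up to 1000 bp apart. Target copies (80% aligned, 85% identity) were found with blastn 2.17.0. ETn and RLTR4 elements were placed from capture probe sequences. Windows were called alike to these elements at 80% identity over 200 bp to at least 5 of them. Fisher's exact test, adjusted by Benjamini-Hochberg (own code in Python 3.11.15, checked against SciPy 1.17.1 and on simulated data) compared the 2i + Vitamin C libraries. Shares carry 95% Wilson intervals, which cover counting error only. Named were the 12 loci with most members, the 6 largest losses among members with at least 50 reads in both 2i + Vitamin C libraries, genes with 2 or more members within 1 kb of a TSS, genes of the lists with a member, and 3 sites on each side of the 30 point limit. Alternatives were other limits on loss, serum difference, depth, distance and copies.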

Additional observations from a re-analysis of the deposited data

Results flagged for a closer look

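At the 355 sites that the rule did not use, that lay more than 100 and up to 1000 bp from a 2i-only loss site and that had at least 10 reads in all 4 libraries, the mean KO minus WT difference was -6.4 points in 2i + Vitamin C and 2.3 points in serum. The opposite direction in the 2 media drew attention, and with 1 library per group the difference was not tested. The same signs were seen at unused sites beyond 20 kb from a member, with means of -1.93 points in 2i + Vitamin C and 3.45 points in serum. Over all 311369 sites with enough reads the means were -1.67 and 3.03 points. The opposite direction was thus not particular to sites near members.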

How the results depend on the processing

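No paired analysis was possible because each group has 1 library and no replicate numbers. Of 31 alternatives, 11 gave a count within 1.5 times the reported count or a share inside its 95% Wilson interval, which is wide for the neighbours called lost (1.7%, and 3.14% at 1 to 100 bp). The number of members (967) became 4419 and 230 with a loss of at least 20 and 40 points, 613 with a serum difference of at most 5 points, 2357 and 502 with at least 10 and 30 reads in both 2i + Vitamin C libraries, 417 when the Fisher test was also required and 256 for gains. The 791 loci became 183 with a loss of at least 40 points and 404 with 30 reads. The share within 1 kb of a TSS (6.72%) was 4.34% and 10.4% within 500 and 2000 bp and 5.22% with a loss of at least 40 points. The neighbours called lost were 7.58% with a loss of 30 points and no test. The share at ETn or RLTR4 elements (3.1%) was 4.78% with a loss of at least 40 points and 1.9% with each locus counted a single time. The share near target copies (3%) was 9.2% within 5 kb, where the comparison sites went from 1.2% to 6.28%, and 1.9% by locus. In alternatives chosen after seeing the data, members that pass the Fisher test had shares of 5.28% near a TSS, 5.52% at the elements and 5.04% near target copies. The depth of the KO 2i + Vitamin C library limits how many of the losses can be told from counting error.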
